A study of Hevea brasiliensis with 21 samples.

Results

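Ethephon, a compound that releases ethylene inside plant tissue, is applied to the tapping cut of rubber trees to prolong latex flow. The comparison described here asked which transcripts of latex differed between ethephon-treated and untreated trees of Hevea brasiliensis clone PB260 while both groups still had only slight tapping panel dryness (TPD), the syndrome in which part or all of the cut stops yielding latex. The members were 6 of the 21 libraries of the series, chosen by clone, treatment and dryness class: 3 control trees that received no ethephon and 3 trees that received it 12 times a year. All 6 trees were tapped on a half-spiral cut on alternate days and sampled 36 months after first tapping, and each library holds the latex of 1 tree. The replicates are therefore separate trees of a single clone at a single site, and every difference below is a difference between 3 trees and 3 trees. Of the 86941 contigs (assembled transcript sequences) in the files, 30522 reached a level of 1 CPM (pairs relative to library size) in 3 or more of these libraries and were tested, while 20325 had 0 pairs in all 6.

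Some limits of the groups come with the design. The sample records call all of these trees healthy and untreated, so the treatment was read from the titles, which carry 0 or 12, and the dryness class from the description of the study. Control trees were sampled on day 25 of month 3 and ethephon trees on day 27 of the same month, so ethephon and sampling day cannot be told apart. The study recorded a longer dry part of the cut in the ethephon trees than in the controls, within the slight class. Libraries held 16.10e6 to 22.79e6 counted pairs, and the percentage of reads removed because they hit several contigs was 22.5 to 23.5 in control and 19.8 to 21.2 in ethephon trees, with no overlap. Its part in the results was not tested. In bulk latex, a lower level per cell and fewer cells of a kind cannot be told apart.

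Latex is the cytoplasm of laticifers, a network of joined cells in the soft bark that makes rubber from isoprenoid units. Ethylene is perceived by membrane receptors, and in the nucleus the signal passes through the EIN3 factors and then through transcription factors of the AP2/ERF family. It acts together with jasmonate, the wound hormone made from membrane lipids, and tapping itself wounds the bark at every harvest. The markers were read before the results. The latex protein contig CL1Contig7138, which encodes the translationally controlled tumour protein HbTCTP1, was at 2464, 3278 and 2316 CPM in control trees and at 1483, 2414 and 2519 CPM in ethephon trees. The other latex markers were less even. Hev b 4 (CL10238Contig1) had means of 12.4 CPM in control and 3.63 CPM in ethephon trees, with overlap. lMYC5 (CL10144Contig1) had means of 36.3 and 521 CPM. HMG-CoA reductase 3 (CL5369Contig2), picked by the study for its rise, had means of 3.54 and 169 CPM. The 6 contigs, annotated in the order of their names, that match photosynthesis genes, active in green bark, summed to 1.25 to 3.43 CPM in control and 1.46 to 1.92 CPM in ethephon trees, and none of them was at 0 in all trees. Another chloroplast contig, CL24951Contig1, similar to a translocon component and picked by the study for its rise, was at 0.601 to 0.795 CPM in control and 6.44 to 15.9 CPM in ethephon trees. Of the wood markers, the xylem serine proteinase contig CL10359Contig1 was at 0 in all 6 trees and the IRX9-like xylosyltransferase contig CL10098Contig1 did not exceed 0.122 CPM. Another IRX9-like contig, CL18489Contig1, picked by the study for its rise and not tested here, was at 0, 0.122 and 0.0527 CPM in control and at 1.66, 0.122 and 1.57 CPM in ethephon trees. Both contigs that match APL, a MYB-type factor of phloem development, were low in control trees and higher with ethephon, but the study picked both for their rise, and both passed the filter through the ethephon trees alone. CL9580Contig1 was at 0.0527 to 0.231 CPM in control and 1.22 to 6.90 CPM in ethephon trees, and CL9580Contig2 at 0 to 0.324 and 1.36 to 5.66 CPM. The part of phloem or wood RNA in the results was not tested. Matches to powdery mildew fungi summed to 15.2 to 19.3 CPM in control and 8.88 to 14.0 CPM in ethephon trees, nearly all from CL10081Contig2, and 56 of the 62 such contigs were at 0 in all trees.

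Ethephon trees differed from control trees in a large share of the latex transcriptome. By the quasi-likelihood test of edgeR with Benjamini-Hochberg adjustment over all tested contigs, 8436 contigs (27.6%) were called at an adjusted p under 0.05. Of these 4031 (13.2%) were higher and 4405 (14.4%) lower with ethephon. The median log2 fold change over all 30522 contigs was 0.00. A log2 fold change over 4 was called for 120 higher (0.393%) and 38 lower contigs (0.125%), although lower calls were more numerous. Some of the contigs over 4 passed the count filter only through the group in which they were high, so their direction was fixed. The counts over 4 were not repeated without them. The middle higher contig changed by 1.04 and the middle lower contig by -1.16 on the log2 scale. Without ethephon tree 3 the number of calls was 5154, and without control tree 2 it was 5606. A test against a 1.5-fold change instead of no change gave 3455.

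**Figure D1:**
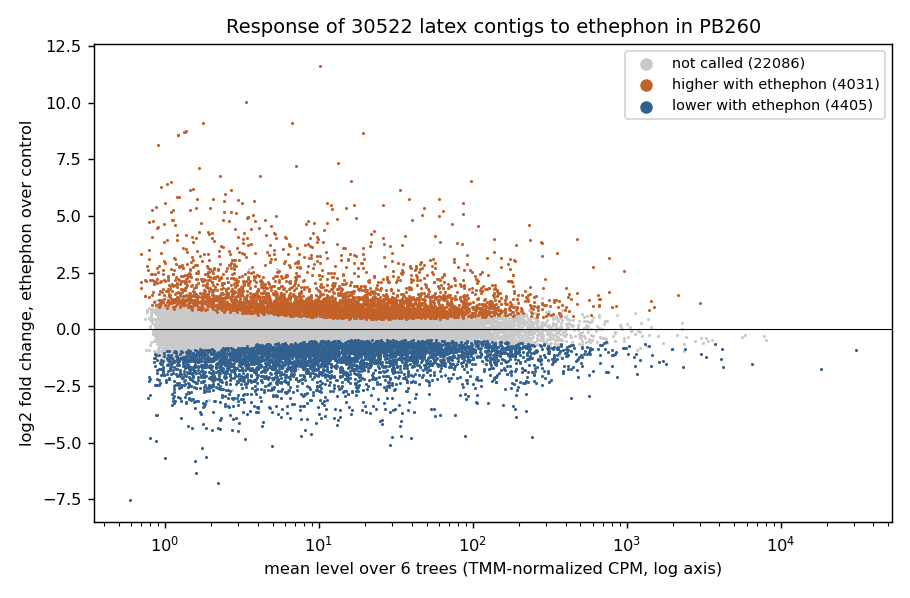
Mean level over 6 trees (TMM-normalized CPM, log axis) against the log2 fold change of ethephon over control for each of the 30522 tested contigs, coloured by call. The 4031 contigs called higher and the 4405 called lower cover the whole range of levels. Among the 100 most abundant contigs 39 were called lower and 10 higher, beside 14.4% and 13.2% of all tested contigs.

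The trees of a group were not equally far from the other group. Of the contigs called higher, control tree 3 was the lowest control for 2235 (55.4%), and of those called lower it was the highest control for 2151 (48.8%). Control tree 1 lay nearest to the ethephon trees for 1846 (45.8%) of the higher and 2548 (57.8%) of the lower contigs. Among ethephon trees the spread was more even, and tree 2 lay nearest to the controls for 41.2% and 41.3% of the higher and lower contigs. Groups did not overlap for 4003 of the 4031 higher and 4346 of the 4405 lower contigs, and over all tested contigs the ethephon group lay entirely above the control group for 22.1% and entirely below it for 21.7%. These counts describe contigs chosen for their difference. Some contigs passed the count filter only through the group in which they were high. Under 1 CPM in all 3 controls and at least 1 CPM in all 3 ethephon trees were 400 contigs, and the reverse held for 404. Such contigs had to differ. Leaving them out, 3688 contigs were called higher and 4052 lower.

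The calls shifted much of the counted latex RNA. Contigs called higher took 9.10, 8.16 and 7.28% of the normalized pairs in control trees 1 to 3 and 22.1, 19.7 and 21.3% in the ethephon trees. Contigs called lower took 35.3, 37.4 and 38.4% in control and 17.5, 19.8 and 18.4% in ethephon trees. These shares describe contigs picked by the test. Counted independently of the calls, the 10 most abundant contigs took 12.1, 12.3 and 10.6% of pairs in control and 5.86, 7.50 and 7.10% in ethephon trees. The 100 most abundant took 25.6 ± 0.475% in control and 18.8 ± 1.29% in ethephon trees (mean ± SD, n = 3 trees each). In both cases every ethephon tree lay below every control tree, and the exact two-sided permutation p was 0.1, the smallest that 3 against 3 trees can give. Of these 100 contigs 39 were called lower and 10 higher, beside 14.4% and 13.2% of all contigs. Their median log2 fold change was -0.51 beside 0.00 over all contigs. The share of contigs called also rose with the level, from 17.1% in the lowest of 4 equal bins of mean CPM to 38.3% in the highest. In that highest bin 1520 contigs were called lower and 1400 higher.

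**Figure D2:**
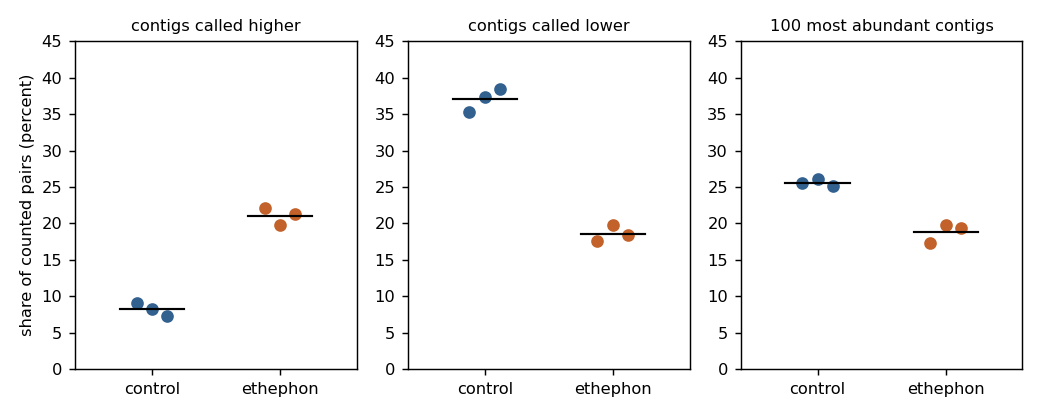
Share of counted pairs (percent, axis from 0) in each control and ethephon tree for contigs called higher, contigs called lower and the 100 most abundant contigs. Points are trees and bars group means; the first and second panels show contigs selected by the test, and in the third the ethephon trees sit between 17.4 and 19.8%, below the control trees at 25.1 to 26.1%.

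The most abundant contigs of latex led this fall, although no annotation of them was used here. CL1Contig10398 was at 39722, 45052 and 35978 CPM in control and at 15031, 25158 and 24368 CPM in ethephon trees. Its log2 fold change was -0.90 (SE 0.28, adjusted p = 0.0412 from edgeR), a call lost without control tree 1 or 2 or without any 1 of the ethephon trees (adjusted p = 0.0635 to 0.163). CL1Contig10915 was at 30216, 35260 and 18650 CPM in control and at 5169, 11316 and 8824 CPM in ethephon trees. It fell by 1.73 on the log2 scale (SE 0.36, adjusted p = 0.00756 from edgeR). Of the 10 contigs with the highest mean CPM, 6 were called lower, with log2 fold changes from -1.73 to -0.86, and none higher. Of all contigs 14.4% were called lower and 13.2% higher. CL1Contig10421, the smallest of these falls, had an adjusted p of 0.0486 from edgeR. The other 4, CL1Contig10496, CL5Contig3, CL1Contig21078 and CL682Contig1, had log2 fold changes from -0.48 to -0.23 that did not pass the test. The contig of HbTCTP1 was also not called (log2 fold change -0.33, SE 0.26, adjusted p = 0.394 from edgeR), and its groups overlapped. Its shorter contig CL1Contig21026 was at 7.29 ± 7.58 and 5.51 ± 4.46 CPM (mean ± SD, n = 3 trees each), also with overlap. CL1Contig631, named here after its values were seen, went the other way, with 2518, 1417 and 1587 CPM in control and 4774, 3866 and 3643 CPM in ethephon trees. Its call was lost without control tree 2 (adjusted p = 0.0671 from edgeR).

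Functions were read from contigs annotated in the order of their names, an order that does not depend on the values. Of 1984 such contigs 724 were tested, and 104 were called higher and 106 lower (29.0%, beside 27.6% of all contigs). The annotated contigs thus carried calls about as often as the rest. They were grouped into 23 lists by words in their annotation, and most lists hold few tested contigs. Each count of called members below stands beside 13.2% of all contigs called higher and 14.4% called lower. A second set of annotated contigs was held because the study had ranked them as the most over-expressed in this very comparison, so their direction is not independent evidence, and they are kept apart below. Counts of lists are of name-ordered contigs alone, and every tested study-chosen contig of these lists was called higher.

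Regulators of transcription were mixed in direction. Of 16 tested transcription factor contigs 2 were called higher and 2 lower (25%, beside 27.6% of all contigs), with a median log2 fold change of -0.04. The largest change was in CL10144Contig1, lMYC5, a bHLH factor of laticifers of the MYC type that acts in jasmonate signalling. It was at 56.2, 40.6 and 12.3 CPM in control trees and at 505, 453 and 605 CPM in ethephon trees, a log2 fold change of 3.84 (SE 0.49, adjusted p = 0.000783 from edgeR). The groups did not overlap, and control tree 3 was the lowest. The homeobox contig CL1071Contig3 rose from 511, 323 and 292 to 1396, 1090 and 1011 CPM, a log2 fold change of 1.64 (SE 0.26, adjusted p = 0.00235 from edgeR). Another contig of the same cluster, CL1071Contig1, was at 270 ± 15.9 CPM in control and 309 ± 94.6 in ethephon trees (mean ± SD, n = 3 trees each) and was not called (adjusted p = 0.577 from edgeR). Lower were CL1070Contig6, similar to the bZIP factor RF2a, by 0.77 on the log2 scale, and CL10504Contig2, similar to a gibberellin-responsive factor of the GRAS family, with a log2 fold change of -1.06. The call of the latter was lost without control tree 2 or without ethephon tree 3 (adjusted p = 0.0549 and 0.058 from edgeR). A zinc finger contig outside the list, CL10739Contig1, was at 0.0925 to 0.264 CPM in control and 3.66 to 4.01 CPM in ethephon trees. It passed the filter through the ethephon trees alone.

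The single name-ordered AP2/ERF contig tested, CL10676Contig1, resembles DREB2C, a factor of dehydration and heat responses in Arabidopsis. It was at 24.6, 21.3 and 25.6 CPM in control and 38.3, 26.0 and 62.9 CPM in ethephon trees, without overlap, and did not pass the quasi-likelihood test (log2 fold change 0.83, SE 0.29, adjusted p = 0.0582 from edgeR). The exact test of edgeR and the Wald test of DESeq2 called it (adjusted p = 0.0188 and 0.0236). The contig of the factor HbERF-IIb2, CL17512Contig1, was not tested, since no tree exceeded 0.0951 CPM. Among the contigs that the study chose for over-expression, the ERF112-like contig CL8139Contig1 was at 12.2, 11.5 and 7.80 CPM in control and 136, 144 and 161 CPM in ethephon trees. The PTI6-like contig CL1Contig16711 was at 7.54, 9.23 and 1.48 CPM in control and 97.4, 121 and 102 CPM in ethephon trees, and control tree 3 was again the lowest.

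In the chromatin and transcription machinery, 1 of 15 tested contigs was called higher and 2 lower (20%, beside 27.6% of all contigs). The median log2 fold change was 0.01. CL1038Contig7, similar to the nucleolar protein NOP56 of ribosomal RNA modification, fell from 11.7, 20.9 and 36.9 to 3.42, 4.07 and 1.57 CPM, a log2 fold change of -2.95 (SE 0.46, adjusted p = 0.00203 from edgeR). CL1049Contig1, an RNA helicase contig of 5657 bases, fell from 247 ± 24.5 to 111 ± 16.7 CPM (mean ± SD, n = 3 trees each). The SUVH-like histone methyltransferase contig CL10247Contig2 was called higher at an adjusted p of 0.0429 from edgeR, a call that was lost by DESeq2 and without control tree 1 or 2 or any 1 of the ethephon trees (adjusted p = 0.058 to 0.128). Ribosomal protein contigs were called higher in 2 of 3 cases, beside 13.2% of all contigs. The mitochondrial L47-like contig CL10340Contig1 rose from 16.3, 13.9 and 10.2 to 38.7, 54.6 and 43.6 CPM, a log2 fold change of 1.76 (SE 0.22, adjusted p = 0.000732 from edgeR). The cytosolic L38 contig CL102Contig4 rose from 82.4, 69.1 and 56.9 to 140, 125 and 135 CPM. The chloroplast L24 contig, the other member tested, did not pass the test.

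Name-ordered contigs of membrane transport were called in the lower direction alone, while 6 of 6 tested study-chosen transporter contigs were higher. Of 16 name-ordered contigs tested, 5 (31.2%, beside 27.6% of all contigs) were lower and 0 higher in edgeR's quasi-likelihood test, and 0 were higher by DESeq2, by the exact test or at an unadjusted p below 0.05, and the median log2 fold change was -0.37 beside 0.00 over all contigs. The ABC transporter contig CL1080Contig4 was at 9.16, 9.29 and 7.75 CPM in control and at 0.666, 0.972 and 0.787 CPM in ethephon trees, a log2 fold change of -3.43. Its cluster neighbour CL1080Contig7, a multidrug resistance type ABC transporter contig, fell from 5.18, 6.66 and 5.48 to 0.761, 0.668 and 0.919 CPM, a log2 fold change of -2.86 (SE 0.27, adjusted p = 0.000232 from edgeR). Both may be pieces of 1 gene. The potassium channel contig CL10139Contig1 was at 1.06, 2.44 and 3.00 CPM in control and at 0.238 to 0.304 CPM in ethephon trees. CL10827Contig3, similar to TRANSPARENT TESTA 12, a vacuolar transporter of flavonoids in Arabidopsis, was at 7.54, 4.77 and 7.54 CPM in control and at 0.761, 1.22 and 1.09 CPM in ethephon trees. The vacuolar amino acid transporter contig CL10301Contig1 had a log2 fold change of -1.33 (adjusted p = 0.0365 from edgeR), a call lost without control tree 1 or 2 or ethephon tree 1 or 2 (0.0531 to 0.109). Without control tree 1 or 2 only 1 of the transporter contigs was called, and without control tree 3 it was 2. CL1080Contig4, CL1080Contig7 and CL10139Contig1 reached the filter level in the 3 control trees alone, so they had to be lower, and they go untested when a control tree is left out. The abundant heavy metal ATPase contigs CL1039Contig2 and CL1039Contig10, which carry zinc and cadmium, were at 38.7 ± 4.70 and 32.1 ± 0.263 CPM in control and at 48.0 ± 4.27 and 30.5 ± 4.14 CPM in ethephon trees (mean ± SD, n = 3 trees each), and neither passed the test.

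Signal relays changed in both directions. Both tested contigs of the cytokinin relay were called lower (beside 14.4% of all contigs). They encode histidine phosphotransfer proteins, which carry a phosphate from hormone receptors to the nucleus, and share the cluster CL104. CL104Contig16 was at 121, 134 and 94.0 CPM in control and 33.2, 43.0 and 26.9 CPM in ethephon trees, and CL104Contig15 was at 11.9, 24.7 and 11.2 and at 3.62, 6.44 and 2.36 CPM. Of 8 tested protein kinase contigs 2 were higher and 4 lower (75%, beside 27.6% of all contigs). The receptor-like kinase contig CL10646Contig1 rose from 1.39, 1.83 and 2.003 to 9.85, 6.81 and 8.49 CPM, a log2 fold change of 2.27 (SE 0.25, adjusted p = 0.000432 from edgeR), and the cyclin-dependent kinase contig CL1027Contig7 rose from 6.46 ± 0.519 to 13.9 ± 0.923 CPM. Of the 4 lower contigs, 3 belong to the cluster of the alpha subunit of casein kinase II, an enzyme active in most plant cells, with log2 fold changes of -0.82 to -0.89. CL1084Contig3 fell from 93.4, 91.6 and 86.6 to 51.4, 47.2 and 48.2 CPM. Without control tree 2 or without ethephon tree 3, 1 of the 4 lower kinase contigs was called. Protein phosphatases had no call among 4 tested name-ordered contigs by edgeR's quasi-likelihood test, by its exact test or by DESeq2, 0 at an unadjusted p below 0.05, and their log2 fold changes lay between -0.18 and 0.22. Of 4 tested contigs of calcium signalling, CL10096Contig2, a calmodulin-binding protein, was called lower, and its call was lost without control tree 1 or 3 or ethephon tree 1 or 2.

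All 3 tested name-ordered contigs of isoprenoid and sterol synthesis were called lower, beside 14.4% of all contigs. Squalene epoxidase makes the first oxygenated precursor of sterols from a product of the same pathway that feeds rubber. Its contig CL1037Contig4 was at 21.2, 23.7 and 24.0 CPM in control and at 7.47, 11.5 and 13.5 CPM in ethephon trees, a log2 fold change of -1.08 (SE 0.22, adjusted p = 0.00719 from edgeR). Its cluster neighbour CL1037Contig1 fell from 2.59 ± 0.347 to 1.03 ± 0.0259 CPM (mean ± SD, n = 3 trees each). The terpene synthase contig CL10436Contig1 fell from 10.5, 9.96 and 23.9 to 3.81, 3.10 and 2.97 CPM. The list has 2 clusters, so the 3 contigs are not 3 independent genes. Outside the name-ordered contigs, CL5369Contig2, HMG-CoA reductase 3 of the mevalonate pathway, was at 4.49, 5.50 and 0.632 CPM in control and at 127, 127 and 254 CPM in ethephon trees. It is among the contigs the study chose for being over-expressed, of which all 3 tested in this list were higher.

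Jasmonate synthesis was represented by a single tested name-ordered contig, CL10285Contig1, similar to allene oxide cyclase 3, which closes the ring of the jasmonate precursor. It was at 3.70, 2.75 and 0.527 CPM in control and at 10.8, 25.2 and 17.8 CPM in ethephon trees, a log2 fold change of 2.93 (SE 0.55, adjusted p = 0.00454 from edgeR). The enzyme before it in the pathway is allene oxide synthase. Its contig CL1Contig911 was at 4.26, 1.28 and 0.896 CPM in control and at 89.8, 92.3 and 175 CPM in ethephon trees, but was picked by the study for its rise. An earlier step, not the one directly before, is the release of the fatty acid from membrane lipids, the role of phospholipase A1. Its study-picked contig CL1Contig21396 was at 45.8, 33.8 and 7.17 CPM in control and at 404, 338 and 587 CPM in ethephon trees. In all of these control tree 3 was the lowest.

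In fatty acid synthesis 1 of 5 tested contigs was called lower (20%, beside 27.6% of all contigs called). All 5 fold changes were below 0, with a median of -0.42 on the log2 scale. The 5 contigs come from 3 clusters, so they are not 5 independent genes. The acyl carrier protein contig CL103Contig4 fell from 183, 182 and 243 to 127, 110 and 92.7 CPM, and its call was lost without ethephon tree 3 (adjusted p = 0.0597 from edgeR). Sphingolipid synthesis had 5 tested contigs, of which 2 were higher (40%, beside 27.6% of all contigs called). Both are annotated to the LCB2 subunit of serine palmitoyltransferase, the first enzyme of that pathway. They share the cluster CL100, so both may be pieces of 1 gene. CL100Contig24 rose from 81.1, 66.8 and 48.9 to 115, 125 and 131 CPM, a log2 fold change of 0.91 (SE 0.21, adjusted p = 0.011 from edgeR). CL100Contig3 rose from 2.49 ± 0.365 to 4.44 ± 0.520 CPM, a call that was lost without control tree 2 or 3 or ethephon tree 2 or 3 (adjusted p = 0.0724 to 0.103 from edgeR). On the log2 scale the list as a whole had a median of -0.08.

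**Figure D3:**
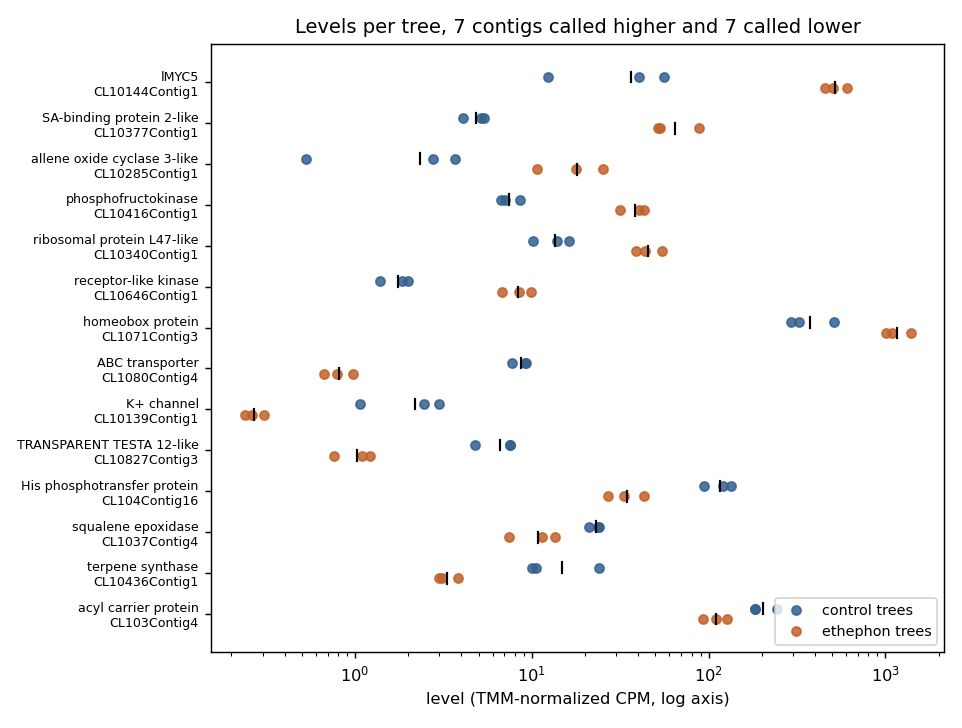
Level (TMM-normalized CPM, log axis) of 14 contigs in each of 3 control and 3 ethephon trees, 7 called higher and 7 called lower. Points are trees and short black bars are group means, and for each contig the highest tree of one group lies below the lowest tree of the other, as for lMYC5 at 12.3 to 56.2 against 453 to 605 CPM. The contigs were picked among called ones, most of them for not overlapping, so this separation follows from the choice. Over all tested contigs the ethephon group lay entirely above for 22.1% and entirely below for 21.7%. CL1080Contig4 and CL10139Contig1 passed the filter through the control trees alone.

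Phosphofructokinase, an enzyme of glycolysis, is encoded by CL10416Contig1, which was at 8.56, 7.09 and 6.69 CPM in control and at 40.2, 31.5 and 42.8 CPM in ethephon trees. Its log2 fold change was 2.36 (SE 0.19, adjusted p = 0.00015 from edgeR). In the list of ascorbate and antioxidant enzymes 2 of 5 tested contigs were higher (40%, beside 27.6% of all contigs called). The median log2 fold change was 0.63. The 5 contigs come from 2 clusters, and both called contigs share the cluster CL1032, so they are not 5 independent genes. CL1032Contig2, GDP-L-galactose phosphorylase of vitamin C synthesis, was at 98.3, 88.0 and 64.1 CPM in control and at 113, 155 and 138 CPM in ethephon trees. Its call (adjusted p = 0.0361 from edgeR) was lost without control tree 2 or 3 or ethephon tree 2 or 3 (0.0852 to 0.112). The contig CL10376Contig1 rose from 9.30, 8.01 and 8.80 to 39.5, 22.7 and 25.6 CPM. Its best match is a glutathione S-transferase omega of a fish, so its own identity is uncertain. CL1028Contig8, similar to tropinone reductase of the short-chain dehydrogenase family, rose from 12.7 ± 3.01 to 33.0 ± 3.18 CPM (mean ± SD, n = 3 trees each).

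Defence contigs showed no call among 3 tested name-ordered members by edgeR's quasi-likelihood test, by its exact test or by DESeq2, with 1 lower at an unadjusted p below 0.05, and at log2 fold changes of -0.75, -0.31 and -0.22 all were below 0. A salicylic acid-binding protein contig stood outside that list. CL10377Contig1 is similar to SABP2, which in tobacco frees salicylic acid from its methyl ester, and was at 5.37, 5.13 and 4.06 CPM in control and at 52.9, 51.7 and 88.4 CPM in ethephon trees. Its log2 fold change was 3.73 (SE 0.27, adjusted p = 9.17e-05 from edgeR). The allergen contig CL10238Contig1, Hev b 4, was at 27.6, 6.30 and 3.32 CPM in control and at 4.80, 4.19 and 1.88 CPM in ethephon trees, so the groups overlapped and control tree 1 alone was high. It was not called by the quasi-likelihood test (adjusted p = 0.0875 from edgeR), but was by edgeR's exact test (0.0152) and without control tree 3 (0.0184).

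Of 12 tested name-ordered contigs of proteolysis and ubiquitin 2 were higher and 1 lower (25%, beside 27.6% of all contigs), with a median log2 fold change of -0.04. CL10463Contig1, a ubiquitin ligase contig, fell from 10.1, 10.0 and 10.9 to 5.09, 4.31 and 5.34 CPM. The calls of CL10244Contig1, an FtsH-type protease of organelles, and CL1034Contig6, a RING finger protein, had adjusted p of 0.0242 and 0.0254 from edgeR, and each was lost when any 1 of 4 trees was left out, controls 1 and 3 and ethephon trees 2 and 3 for the former and controls 2 and 3 and ethephon trees 1 and 3 for the latter. Of 7 name-ordered chaperone contigs 2 were higher (28.6%) and all 7 had fold changes above 0. The 7 contigs come from 4 clusters. CL1066Contig1, similar to GrpE, the exchange factor of Hsp70, rose from 4.81, 6.36 and 6.32 to 14.8, 10.1 and 11.99 CPM, whereas CL1066Contig5 of the same cluster was at 36.1 ± 0.114 and 39.4 ± 5.38 CPM (mean ± SD, n = 3 trees each) and was not called. Of 16 pentatricopeptide repeat contigs, which bind RNA in organelles, 1 was higher and 2 lower (18.8%, beside 27.6% of all contigs). CL1040Contig1 fell from 206, 180 and 194 to 91.5, 108 and 96.6 CPM. Of 4 contigs of the cell wall and of glycan trimming 2 were lower (50%, beside 27.6% of all contigs called). Both are of mannosyl-oligosaccharide glucosidase, which trims new glycoproteins, and share the cluster CL1074. The abundant beta-galactosidase contig CL101Contig18 did not pass the test. Vesicle traffic had no call among 5 contigs by edgeR's quasi-likelihood test, by its exact test or by DESeq2, with 1 lower at an unadjusted p below 0.05, and none of the cytochrome P450 contigs of the name-ordered set was tested.

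**Figure D4:**
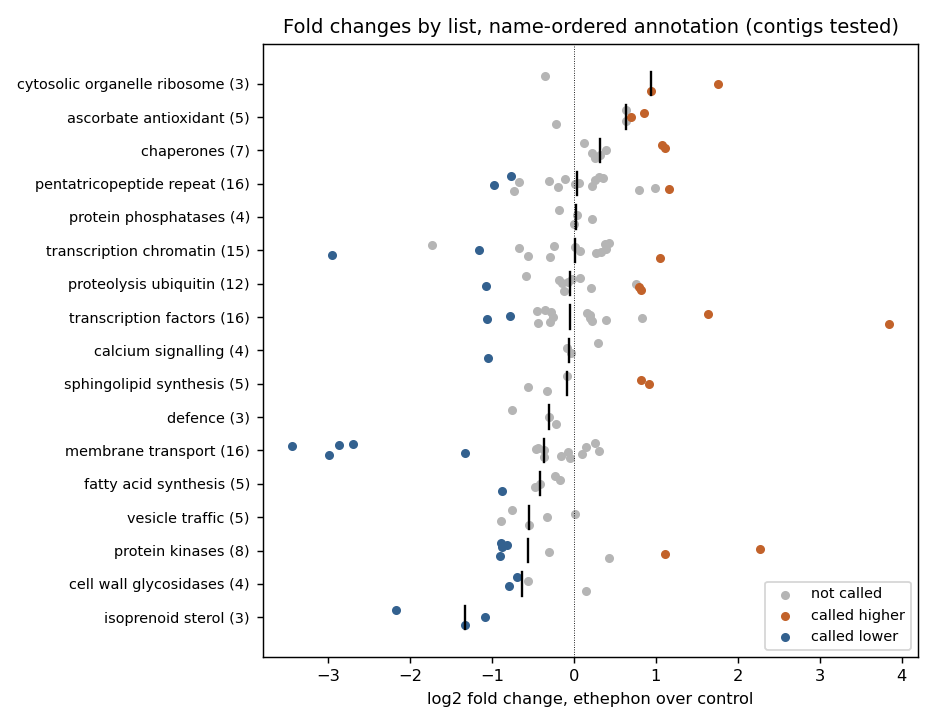
Log2 fold change of ethephon over control for each tested contig of the 17 lists with at least 3 tested name-ordered contigs, with the number tested in parentheses. Points are contigs coloured by call and black bars are list medians, from -1.33 for isoprenoid and sterol synthesis to 0.94 for ribosomal proteins; contigs of a cluster may be pieces of 1 gene.

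A few contigs were listed at 0 in every tree of a group. With at least 1 CPM in all 3 ethephon trees, 9 contigs had 0 pairs in all 3 control trees, and the reverse held for 1 contig. All 9 are among the contigs that the study ranked as most over-expressed. CL1413Contig1, a protein of unknown function, had 470, 314 and 443 pairs in the ethephon trees. Against 3 pairs over the whole control group, the floor used for a count of 0, its level was at least 385-fold higher. CL14371Contig1, also of unknown function, had 234, 37 and 152 pairs and was at least 127-fold higher, and the zinc finger contig CL12239Contig1 had 72, 60 and 79 pairs and was at least 66.6-fold higher. CL8837Contig1, similar to an acidic endochitinase, a defence enzyme that cuts fungal cell walls, was at 1.86, 1.94 and 1.57 CPM in the ethephon trees. In the reverse direction CL9827Contig1 had 24, 23 and 20 pairs in control trees and was at least 23.9-fold lower. With a minimum of 5 CPM instead of 1, 1 contig was left, CL1413Contig1.

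Contigs of an assembly cluster share sequence and may be pieces, alleles or relatives of a gene. Outside the catch-all cluster CL1, 1008 clusters had at least 2 called contigs, and in 430 of them all calls were higher, in 468 all lower and in 110 (10.9%) in both directions. The 110 became 34 when calls over 2-fold were required and 105 when contigs under 500 bases were left out. In 3 of these clusters a contig was annotated by name order. In CL107 the receptor-like kinase contig CL107Contig12 was at 0 to 0.139 CPM in control and at 2.57, 1.58 and 2.49 CPM in ethephon trees, while CL107Contig5 fell from 224, 323 and 206 to 64.8, 104 and 74.6 CPM. CL107Contig12 passed the filter through the ethephon trees alone, so its direction was fixed by the filter. In CL1028 the tropinone reductase contig rose and CL1028Contig7 fell from 9.16, 10.3 and 8.06 to 5.28, 6.75 and 3.72 CPM, a call lost without control tree 1 or 2 or ethephon tree 1 or 3 (adjusted p = 0.0671 to 0.127 from edgeR). In CL1029 the transcription regulator contig CL1029Contig2 rose from 58.1, 48.7 and 37.5 to 85.6, 107 and 101 CPM, and CL1029Contig3 fell from 12.6, 11.9 and 10.4 to 5.95, 6.93 and 7.39 CPM. Reads hitting several contigs were left out before counting, so levels within a cluster are uncertain where contigs resemble each other.

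The response was set beside that of clone PB217 at month 1, another pair of ethephon and control groups of the series, labelled healthy in both arms. In PB217 3 trees had received ethephon at the same yearly rate and 3 had not, and all 6 were sampled on the same day. Clone, sampling date and the tapping code in the titles (S_D2 for PB260, T_D1 for PB217) differ between the pairs. So does the duration of tapping, 36 months against 1, and with it the time for ethephon applications. All of these differ together and cannot be told apart. In PB217 edgeR's quasi-likelihood test called 0 of 27226 contigs, DESeq2 called 55 (0.202%), and before adjustment a p below 0.05 was reached by 1198 (4.40%) in the higher and 1023 (3.76%) in the lower direction. Over 25622 contigs tested in both, the median absolute log2 fold change was 0.42 in PB260 and 0.18 in PB217. A test of the difference itself, the interaction in a fit over 12 libraries, called 5478 of 29047 contigs (18.9%), 2050 (7.06%) with the larger value in PB260 and 3428 (11.8%) with the smaller. Of the contigs called higher in PB260 that could be compared, 1776 of 3263 had a called difference in the same direction, and of those called lower 2932 of 4040, counts in which the PB260 trees enter on both sides. In PB217 53.4% of the former had a fold change above 0, where 49.6% of all contigs did, and 45.3% of the latter had one below 0, where 50.4% of all did.

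Among the named contigs, phosphofructokinase CL10416Contig1 had a log2 fold change of 2.36 in PB260 and -0.22 in PB217, and the difference was 2.57 (SE 0.37, adjusted p = 0.000433 from edgeR). The ribosomal L47-like contig CL10340Contig1 differed by 1.80 and the homeobox contig CL1071Contig3 by 1.46. In the lower direction the ABC transporter contig CL1080Contig4 had -3.43 in PB260 and -0.40 in PB217, with a difference of -3.04 (SE 0.43, adjusted p = 0.000365 from edgeR). It passed the PB260 filter through the control trees alone, so its PB260 value had to be negative. The histidine phosphotransfer contig CL104Contig16 differed by -2.14 and squalene epoxidase CL1037Contig4 by -1.51. Cluster neighbours did not all follow. The difference was 0.17 (SE 0.81) for CL104Contig15 and 0.10 (SE 0.28) for CL1071Contig1, neither called (adjusted p = 0.914 and 0.838 from edgeR). It was called for CL1080Contig7 (-2.31) and CL1037Contig1 (-1.65). For lMYC5 (CL10144Contig1) the log2 fold changes were 3.84 in PB260 and 1.75 (SE 0.69) in PB217, and their difference of 2.08 (SE 0.93) did not pass the test (adjusted p = 0.137 from edgeR).

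**Figure D5:**
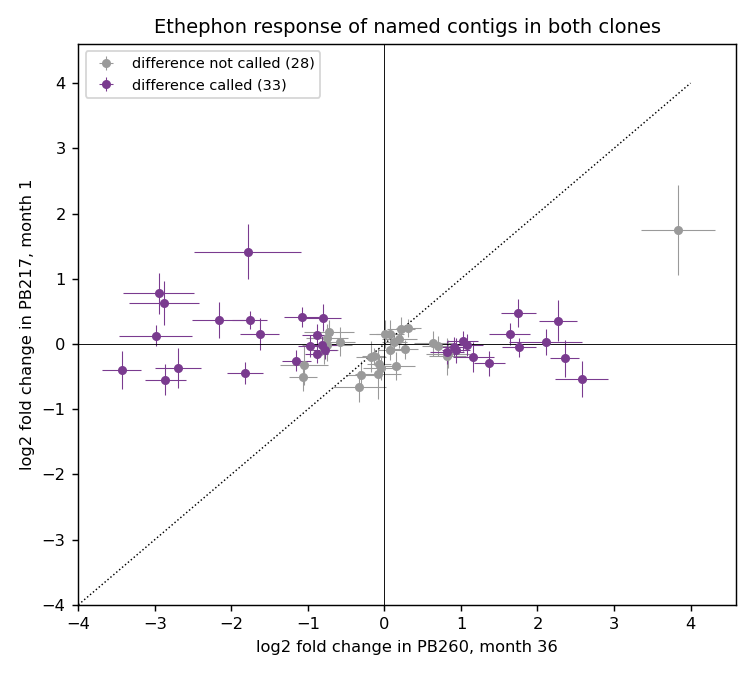
Log2 fold change of ethephon over control in PB260 at month 36 (horizontal) against PB217 at month 1 (vertical) for 61 named contigs with name-ordered annotation, with standard errors as bars and the dotted line where both are equal. The difference was called for 33 of them, beside 18.9% of all contigs, in a set named largely for changes in PB260, whose trees enter both values, and lMYC5 is the point at 3.84 and 1.75.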

How the data were processed

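Latex RNA of 6 trees of PB260 and, for comparison, 6 trees of PB217 at month 1 was used. Each library was stranded, polyA-selected and paired-end. The authors trimmed the reads, removed ribosomal reads, mapped with Bowtie2 (TopHat2 is also named in the submitters' processing notes) to the PB260 reference transcriptome and deposited raw counts of pairs with both mates on a contig, leaving out reads that hit several contigs. Contig length, a value other than a count, was also deposited. Counts of single reads were read for the number of reads per counted pair only.

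Counts were analysed with R 4.3.3, edgeR 4.0.16 and DESeq2 1.42.0. Contigs reaching 1 CPM in 3 or more of the 6 libraries were kept, normalized by TMM and tested by the quasi-likelihood test with a prior count of 0.125 and a Benjamini-Hochberg adjusted p under 0.05. Levels are TMM-normalized CPM. The interaction used 12 libraries and contigs reaching 1 CPM in 6 or more of them. Common biological variation was 24.3%. The tests of contigs and of the interaction were run on simulated counts in which few contigs were made to change, and the other steps were not. The quasi-likelihood test recovered 21% of simulated log2 changes of 1 and 79% of those of 2. The interaction test recovered 6% and 69%. A contig that was not called may therefore still differ. Depth was 16.10e6 to 22.79e6 counted pairs per library.

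Named contigs are part of a set of those discussed by the study or serving as markers, the 12 largest called changes in each direction with informative name-ordered annotation and no overlap, the 2 most abundant members and the lowest-p called member of each list in each direction, the 10 most abundant contigs, up to 3 contigs in each direction at 0 in a group, and annotated clusters with both directions. CL1Contig631, CL10504Contig2, CL10301Contig1, CL1027Contig7, CL1037Contig1, CL1034Contig6, CL8837Contig1, CL24951Contig1 and CL18489Contig1 were named after their values were seen. The members and lists were chosen with earlier results of these data known. Alternatives were other scalings, filters and tests, a replicate block, a covariate and each tree left out.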

Additional observations from a re-analysis of the deposited data

Results flagged for a closer look

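The ethephon response differed between PB260 at month 36 and PB217 at month 1 for 5478 contigs by the interaction test of edgeR over 12 libraries. Among named contigs the difference in log2 fold change (PB260 minus PB217) was 2.57 for phosphofructokinase CL10416Contig1, 1.80 for the ribosomal L47-like contig CL10340Contig1 and 1.46 for the homeobox contig CL1071Contig3. It was -3.04 for the ABC transporter contig CL1080Contig4, -2.14 for the histidine phosphotransfer contig CL104Contig16 and -1.51 for squalene epoxidase CL1037Contig4. These 6 were called in all 9 alternatives of the interaction fit. In PB260, CL1080Contig4 reached the filter level in the control trees alone, so its value there had to be negative. Of cluster neighbours, CL104Contig15 (0.17) and CL1071Contig1 (0.10) had no called difference, while CL1080Contig7 (-2.31) and CL1037Contig1 (-1.65) did. For Hev b 4, CL10238Contig1, which was not called in PB260 alone, the difference was -3.22 (adjusted p = 0.0231 from edgeR), and it was not called without PB260 control tree 1 (adjusted p = 0.075) or without ethephon tree 3 (0.063). Control tree 1 held 27.6 CPM of this contig and the other controls 6.30 and 3.32 CPM. Clone, sampling date, duration of tapping, time for ethephon applications and the tapping code in the titles cannot be told apart in these differences.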

How the results depend on the processing

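The 8436 calls became 3455 against a 1.5-fold change and 5154 to 7890 with 1 tree left out, while the exact test, DESeq2 (its scaling alone or its own test), a table with no contig filtered out, a fit over all 9 PB260 libraries and removal of the 100 most abundant contigs gave 6780 to 9006. No alternative called a contig in the direction opposite to that reported. With reads per counted pair as a covariate, chosen after the data were seen because control tree 3 (2.037) and ethephon tree 1 (2.040) stood above the other libraries (1.983 to 2.006), 11114 contigs were called. With the replicate number as a block, 6577 contigs were called. The difference between PB260 at month 36 and PB217 at month 1 was then called for 3932. Deviations of same-numbered trees had correlations of -0.27, 0.44 and -0.25, and those of differently numbered trees ran from -0.35 to 0.55. With 3 trees per group these values cannot show whether the numbers pair the trees. The main test used no pairing. The 10 contigs at 0 in a group became 1 at a minimum of 5 CPM, and the 110 clusters with both directions became 34 with calls over 2-fold. The difference in the share of pairs on the 10 most abundant contigs was -4.85 percentage points (-5.40 to -4.37 with 1 tree left out) and -6.50 on the 1000 most abundant. Of 1073 fold changes of 75 contigs of the text under alternatives, 975 stayed on the same side of the threshold, 87 lost their call and 11 gained one, and 0 reversed. Of the 61 called, 46 stayed called under every alternative in which they were tested other than the 1.5-fold test. No alternative varied the depth, so what it limits was not tested.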
